A study of Mus musculus with 6 samples.

Results

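Cytochrome P450 family 1 enzymes and the aryl hydrocarbon receptor (AhR) battery were followed gene by gene in whole lung. The set held 10 genes chosen by name: Cyp1b1, Cyp1a1, Cyp1a2, Ahr, Ahrr, Arnt, Tiparp, Nqo1, Aldh3a1 and Ugt1a6a. Of these, 9 had a row among the 21900 genes in the table, and Cyp1a2 was not analysed here. The 6 RNA-seq libraries were made from lungs of mice on a high fat (western) diet for 10 weeks, a diet shared by both groups. By their labels 3 libraries are wild type and 3 are Cyp1b1 knockout, with 2 females and 1 male of each. The sources used here do not give the allele, the strain, the age or any pooling of animals. Nor do the labels state that every library is its own animal. The p-values set a difference against the spread of these libraries, which may not be that of animals. Replicate numbers 1 to 3 only name libraries within a group, and number 3 is the male in both. Groups are called "labelled wild type" and "labelled knockout" because the level of Cyp1b1, described first, ran against the knockout label.

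AhR is a ligand-activated transcription factor of the bHLH-PAS family. It waits in the cytoplasm with chaperones, enters the nucleus when it binds compounds such as dioxins, polycyclic hydrocarbons or tryptophan products, pairs with ARNT and binds response elements with the core GCGTG. Its best known targets, the battery, include the Cyp1 enzymes, which oxidise polycyclic hydrocarbons, and conjugating or reducing enzymes such as NQO1, ALDH3A1 and UGT1A6. In lung, CYP1A1 is known for strong induction in endothelium and epithelium, whereas CYP1B1 is typical of mesenchymal cells.

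The response element core is shown first because it is what the members of the battery are known to share. RefSeq promoter sequences (build GRCm38.p6) were found for 8 of the 10 members; Ahr and Aldh3a1 had no entry. In the 250 bases before the annotated start, both strands were searched for GCGTG and for its longer form TNGCGTG, which contains it. The core lay in 5 of the 8 windows, against 28.2% of all 32851 windows of this length, and the longer form in 1, against 4.10%. Arnt, among those 5, encodes the partner of AhR. Each stretch below runs 5′ to 3′ on the gene's strand, with the core in capitals; CACGC is the core on the opposite strand.
Cyp1b1, chr17:79715120-79715150, minus strand: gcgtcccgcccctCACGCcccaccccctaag
Cyp1a1, chr9:57697546-57697576, plus strand: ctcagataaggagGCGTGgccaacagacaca
Ahrr, chr13:74292421-74292451, minus strand: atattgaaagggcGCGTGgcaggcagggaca
Ahrr, chr13:74292396-74292426, minus strand: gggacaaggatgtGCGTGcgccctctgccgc
Ahrr, chr13:74292341-74292371, minus strand: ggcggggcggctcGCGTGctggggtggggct
Tiparp, chr3:65528264-65528294, plus strand: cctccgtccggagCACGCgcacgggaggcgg
Arnt, chr3:95434348-95434378, plus strand: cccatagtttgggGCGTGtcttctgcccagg
Ahrr held 3 cores, a number reached by 2.77% of all windows, and its copy nearest the start had the longer form. Cyp1a2, Nqo1 and Ugt1a6a held none in this window. Their windows were 47.2% to 53.2% G or C, against 53.6% to 75.2% in the windows with a core. The part of this in the matches was not tested. A match is a description of letters and not a measured binding site, and the well known enhancer of Cyp1a1 lies further upstream than the window shown. The whole windows of both Cyp1 enzymes that were measured follow, since the results turn on these genes.
Cyp1b1, chr17:79715062-79715311, minus strand: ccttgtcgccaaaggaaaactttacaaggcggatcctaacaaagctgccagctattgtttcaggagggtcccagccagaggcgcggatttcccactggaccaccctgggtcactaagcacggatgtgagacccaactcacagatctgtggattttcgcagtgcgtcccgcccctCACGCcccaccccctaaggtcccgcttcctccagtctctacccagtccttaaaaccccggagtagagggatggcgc
Cyp1a1, chr9:57697363-57697612, plus strand: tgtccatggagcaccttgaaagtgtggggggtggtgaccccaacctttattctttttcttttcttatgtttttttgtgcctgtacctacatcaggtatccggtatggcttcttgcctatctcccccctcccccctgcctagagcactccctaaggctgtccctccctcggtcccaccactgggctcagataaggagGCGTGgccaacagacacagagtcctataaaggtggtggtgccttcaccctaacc

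**Figure D1:**
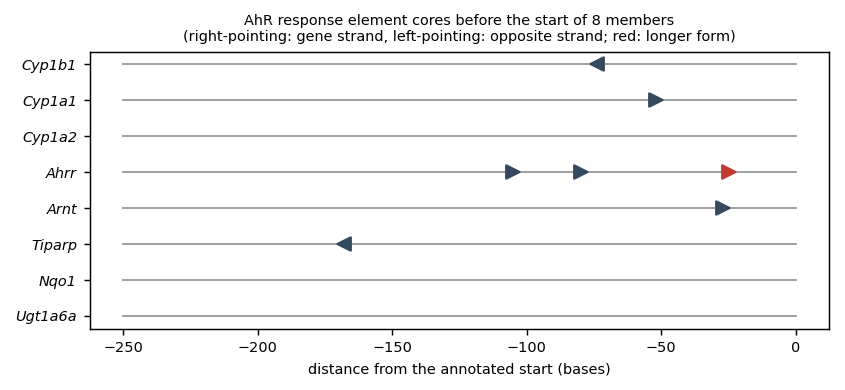
Positions of the AhR response element core in the 250 bases before the annotated start of 8 members. Each triangle is 1 core, pointing right on the gene's strand and left on the opposite strand; the x axis is the distance from the start in bases, and the 3 cores of Ahrr include the longer form in red.

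Libraries differed in depth and in cell type markers. Depth, read from the step between low values, was between 20.2 and 27.6 M assigned reads (M is 1000000). Defining lung markers were high in every library: Scgb1a1 of club cells was between 9396 and 24282 CPM (reads per 1000000 assigned reads) and Sftpc of alveolar type 2 cells between 7541 and 12270 CPM. The 2 male libraries stood apart. In them the 6 summed club cell markers were lower, at 13661 and 18232 CPM against 24611 to 29839 CPM in the females. Scgb1a1 made most of that gap: the other 5 club cell markers summed to 3380 and 4264 CPM in the males and 3897 to 5949 CPM in the females. The 7 neutrophil markers reached 5591 CPM in labelled knockout 3 against 116 to 219 CPM in the other 5 libraries. The 11 endothelial markers summed to 3667 CPM in the male labelled wild type, 6495 CPM in the male labelled knockout and 4619 to 5528 CPM in the females. Vwf, which reached 1891 CPM in that library labelled knockout against 517 to 701 CPM elsewhere, made that high value: without it the sums were 3150, 4603 and 3943 to 4827 CPM. The part of these cell type differences in the results was not tested. The genotype difference of each member tested is therefore also given for the 4 females alone. In whole lung, fewer cells of a type and less RNA per cell cannot be told apart.

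Cyp1b1, the P450 that the knockout label names, had a higher level in the libraries labelled knockout. Labelled wild type 1, 2 and 3 had 12.5, 19.04 and 18.5 CPM, whereas labelled knockout 1, 2 and 3 had 51.2, 56.1 and 48.4 CPM. Each library labelled knockout lay above each one labelled wild type, a separation in that direction that 3.63% of all genes tested showed. The values correspond to 298, 385 and 433 reads against 1142, 1548 and 1241 reads, each a whole number within 0.05, so counting error is small beside the gap. The lowest library labelled knockout had a 95% Poisson interval of 45.7 to 51.1 CPM and the highest labelled wild type one of 17.2 to 21.04 CPM; both intervals cover counting error only. Group means were 16.7 ± 3.64 CPM (SD, n = 3) and 51.9 ± 3.92 CPM (SD, n = 3), with a coefficient of variation of 21.8% and 7.56%. The ratio of means was 3.40 in the females and 2.62 in the males.

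Adjusted for sex, the mean of log2(CPM + 0.5) for Cyp1b1 was higher under the knockout label by 1.63 (95% interval 1.21 to 2.06). All log2 differences that follow are on this scale, which understates changes of low genes, and are labelled knockout minus labelled wild type, or males minus females for sex. Cyp1b1 had the sixth smallest p among 17382 genes tested with limma, where rank 6 still left an adjusted p of 0.0588, outside the threshold of 0.05 that 0.0115% of all genes passed. In the 4 females the difference was 1.76 (95% interval 1.31 to 2.21), and limma gave an adjusted p of 0.0269, past the threshold, as for 0.0406% of genes tested there. Permuting the labels over the 6 libraries (exact test, two-sided, 20 assignments) gave p = 0.1, which is as small as this design can reach. The genotype effect did not pass a test of difference between the sexes (limma interaction -0.40, SE 0.35, adjusted p = 0.60). Markers of the mesenchymal cells that typically hold CYP1B1 overlapped between labels: 8 fibroblast markers summed to 2125 to 2818 CPM under the wild type label and 1836 to 2659 CPM under the knockout label, and 7 smooth muscle and pericyte markers to 981 to 1619 and 1027 to 1495 CPM. Of 6 alveolar macrophage markers, Chil3 was at 279, 224 and 238 CPM under the wild type label and at 58.4 and 64.5 CPM in the females labelled knockout, with the male labelled knockout at 231 CPM, while the other 5 summed to 128 to 151 and 126 to 151 CPM. The part of this in the result was not tested. Cyp1b1 (ENSMUSG00000024087) lies on chromosome 17 from 79701537 to 79715061 on the minus strand, build mm10, and overlaps no other annotated gene. Because the table has 1 value for the whole gene, reads of an intact and of an altered transcript cannot be told apart.

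**Figure D2:**
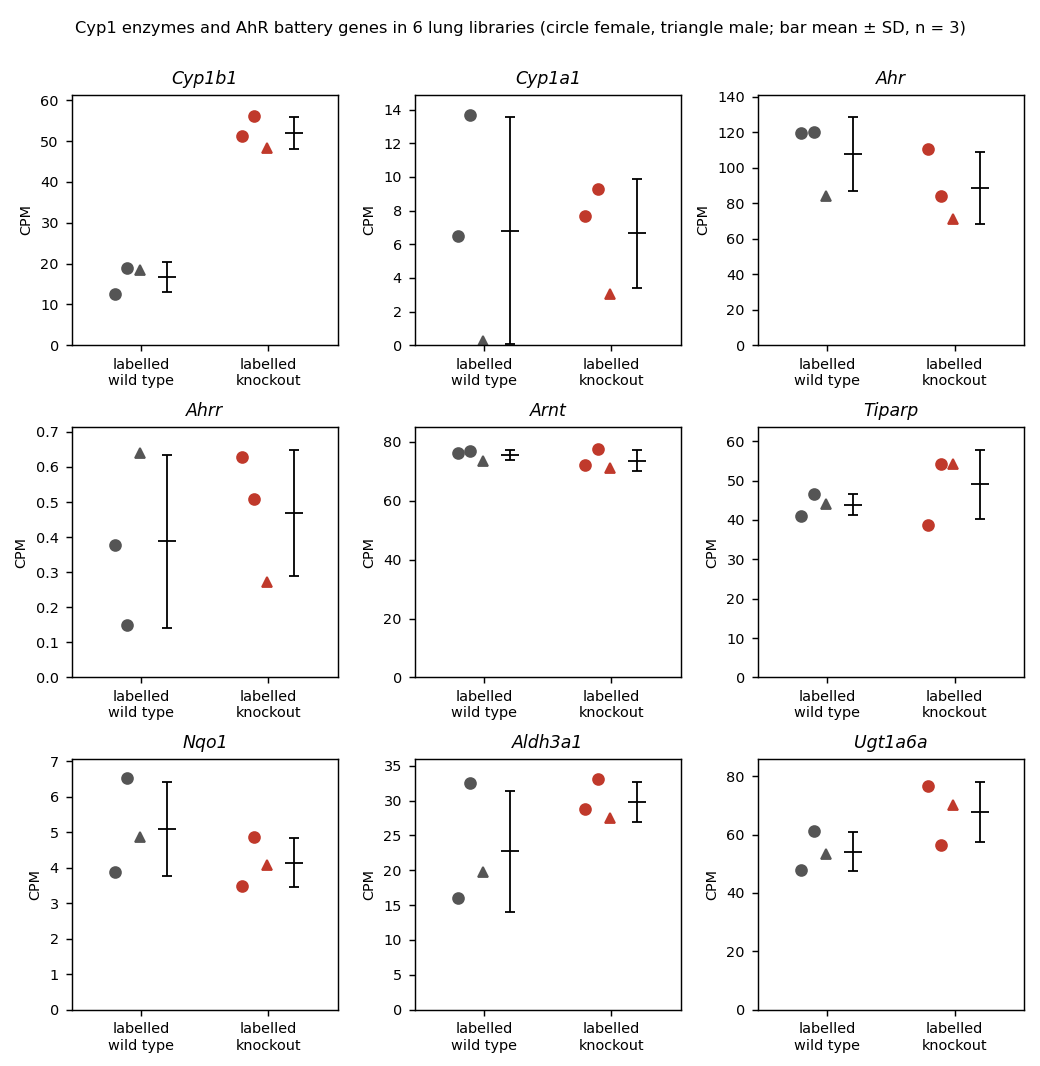
CPM of the 9 members measured, in 6 lung libraries. Each point is 1 library (circle female, triangle male; grey labelled wild type, red labelled knockout), and the bar beside each group is mean ± SD with n = 3; axes start at 0 and differ between panels. Cyp1b1 is the member whose labels do not overlap, and Cyp1a1 is lowest in the 2 males.

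Cyp1a1, the classic AhR reporter gene and the nearest relative of Cyp1b1 measured here, had overlapping labels. Labelled wild type 1, 2 and 3 had 6.49, 13.7 and 0.256 CPM, and labelled knockout 1, 2 and 3 had 7.66, 9.28 and 3.04 CPM. The 2 lowest values were those of the 2 males, and the labels overlapped. In reads, labelled wild type held 155, 277 and 6, and labelled knockout 171, 256 and 78. The male labelled wild type, at 6 reads, had a 95% Poisson interval of 0.0940 to 0.557 CPM, and the male labelled knockout one of 2.40 to 3.80 CPM, so these 2 libraries differed beyond counting error, 11.9-fold; with 1 male per label there is no replicate check on that. Means were 6.82 ± 6.73 CPM (SD, n = 3) and 6.66 ± 3.24 CPM (SD, n = 3).

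The genotype difference of Cyp1a1 was 0.64 on the log2 scale (95% interval -0.52 to 1.80, limma adjusted p = 0.778), and in the 4 females it was -0.16 (95% interval -0.90 to 0.59, limma adjusted p = 0.9999). Its sign thus turned without the males, and an interval reaching 1.80 leaves room for a difference as large as that of Cyp1b1. Between the sexes, Cyp1a1 was at 9.28 ± 3.16 CPM (SD, n = 4) in females and 0.256 and 3.04 CPM in males. That is a difference of -2.53 (SE 0.53, 95% interval -3.76 to -1.30), with a limma adjusted p of 0.0818, outside the threshold. Without labelled knockout 3 the difference was -3.72, and without labelled wild type 3 it was -1.34. Each of these fits holds 1 male, so neither has a spread among males. In the first, that male is labelled wild type 3, with 6 reads of Cyp1a1. In the 6 libraries, 0.224% of all genes tested had a sex difference as large as that of Cyp1a1 or larger in size. The genotype difference of Cyp1a1 was 2.38 log2 units larger in males than in females (SE 0.64, limma interaction adjusted p = 0.104), outside the threshold. With 1 male per label, its spread comes from the females. Over 12 alternatives the interaction ran from 1.84 to 3.30, and in 10 of them it stayed outside the threshold. It passed after median centring (limma adjusted p = 0.0449) and without labelled wild type 1. Beside this, summed markers of many cell types were lower in both males than in the females. Ciliated cell markers (6) were at 455 and 596 CPM against 768 to 990 CPM. Type 2 cell markers (6) were at 14656 and 16113 CPM against 18925 to 20628 CPM, and fibroblast markers (8) at 1836 and 2125 CPM against 2380 to 2818 CPM. Markers of club cells, smooth muscle and pericytes, type 1 cells and mesothelium were lower in both males as well. Without Scgb1a1, the club cell sums of the sexes overlapped. Endothelial markers were not lower in both (3667 and 6495 CPM against 4619 to 5528 CPM), nor were those of adipocytes, cardiac muscle, alveolar macrophages, B cells and T cells. Neutrophil, erythroid and platelet markers were higher in both males (219 and 5591, 2760 and 5848, and 51.2 and 305 CPM) than in the females (at most 175, 1607 and 49.7 CPM). The part of these markers in the result was not tested. Cyp1a1 (ENSMUSG00000032315) spans chromosome 9 from 57687928 to 57703824 on the plus strand and overlaps no other annotated gene; the RefSeq start used for its promoter lies inside that span.

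Set side by side per kilobase of exon, both Cyp1 enzymes were at like levels in the females labelled wild type. The level of Cyp1b1 was 0.917 and 0.663 times that of Cyp1a1 in labelled wild type 1 and 2, and 3.19 and 2.89 times in labelled knockout 1 and 2. In the males it was 34.4 times in labelled wild type 3 and 7.59 times in labelled knockout 3. Cyp1b1 thus made up 47.8% and 39.9% of the summed level of both genes in the females labelled wild type, 76.1% and 74.3% in the females labelled knockout, and 97.2% and 88.4% in the males. The log2 ratio of CPM + 0.5, not scaled by length, was 2.0 ± 2.30 (SD, n = 3) in labelled wild type and 2.99 ± 0.69 (SD, n = 3) in labelled knockout, a difference of 0.99 that did not exceed the spread (exact two-sided permutation test, p = 0.5). In the 4 females this log2 ratio differed by 1.92. Without labelled wild type 3 the difference in the log2 ratio was 2.32 and without labelled wild type 2 it was 0.22, so single libraries set its size.

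**Figure D3:**
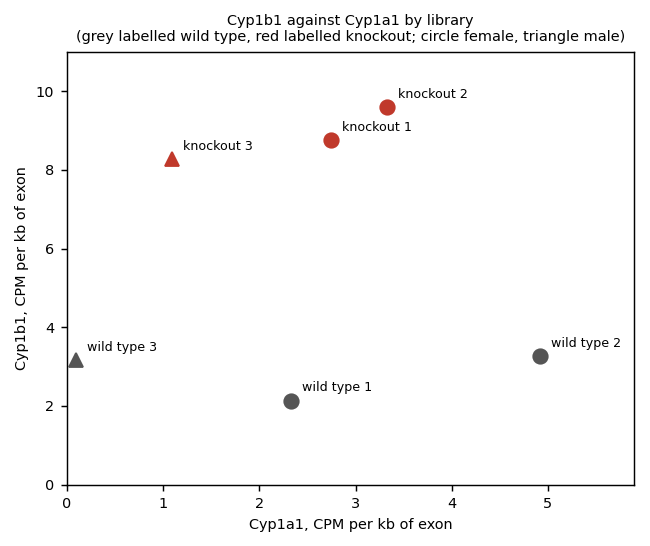
Cyp1b1 (y axis) against Cyp1a1 (x axis), both in CPM per kilobase of annotated exon, 1 point per library. The 3 libraries labelled knockout lie above the 3 labelled wild type on the Cyp1b1 axis, and the 2 males (triangles) are the leftmost points on the Cyp1a1 axis.

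Ahr, the receptor, had 119, 119.9 and 83.9 CPM in labelled wild type 1, 2 and 3 against 111, 84.3 and 71.1 CPM in labelled knockout 1, 2 and 3. Both males lay below all 4 females, the nearest pair being 83.9 and 84.3 CPM, and the genotype labels overlapped. The genotype difference was -0.28 on the log2 scale (95% interval -0.57 to -0.00070, limma adjusted p = 0.775), and -0.31 in the 4 females (95% interval -0.62 to 0.0026, limma adjusted p = 0.9999). The sex difference was -0.47 (95% interval -0.77 to -0.17, limma adjusted p = 0.144). Neither passed the threshold. Ahr shares 127 exon bases with a non-coding gene on the other strand, Gm48236, which was not analysed here. Arnt, the obligate partner, varied least, between 71.1 and 77.6 CPM in all 6 libraries, a coefficient of variation of 3.62% that was undercut by 0.604% of the genes tested. Its genotype difference was -0.04 (95% interval -0.26 to 0.19), with -0.03 in the 4 females and 0.066 after median centring.

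Ahrr, the repressor that competes with AhR for ARNT and is itself an AhR target, was barely detected. Its levels were 0.377, 0.148 and 0.640 CPM under the wild type label against 0.627, 0.508 and 0.273 CPM under the knockout label. These are 9, 3 and 15 reads against 14, 14 and 7 reads, and the labels overlapped. Its mean fell below the filter of 0.5 CPM, so it entered the test only when no filter was set, with a difference of 0.15 (SE 0.32, limma adjusted p = 0.924). No difference was detectable at this depth. The 3 response element cores printed for Ahrr thus stand before the member with the lowest level.

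Tiparp, an AhR-induced mono-ADP-ribosyltransferase that limits AhR activity, was at 41.1, 46.5 and 44.1 CPM under the wild type label and 38.8, 54.1 and 54.1 CPM under the knockout label. Its labels overlapped, and the difference was 0.14 (95% interval -0.21 to 0.49, limma adjusted p = 0.821), with 0.07 in the 4 females. The antisense pseudogene 4931440P22Rik shares 223 exon bases with Tiparp and was at 1.74 to 5.26 CPM; reads of the shared bases cannot be told apart where strand is not used.

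The enzymes of the battery outside the P450s had overlapping labels as well. Nqo1, a quinone reductase that NRF2 also drives, was low at 3.89, 6.53 and 4.87 CPM under the wild type label and 3.49, 4.86 and 4.09 CPM under the knockout label (difference -0.25, 95% interval -0.90 to 0.39, limma adjusted p = 0.831), with -0.26 in the 4 females. Aldh3a1, an aldehyde dehydrogenase known from cornea and airway epithelium, was at 15.99, 32.5 and 19.7 CPM under the wild type label and 28.8, 33.1 and 27.5 CPM under the knockout label (difference 0.44, 95% interval -0.12 to 1.0, limma adjusted p = 0.775). Labelled wild type 2 lay with the libraries labelled knockout and the other two of its label lay below all of them. The difference was 0.42 in the 4 females, 0.16 when labelled wild type 1 was left out and 0.73 when labelled wild type 2 was. Markers of squamous or basal epithelium, another known source of Aldh3a1, summed to at most 3.91 CPM over 5 genes. The part of these cells in the Aldh3a1 level was not tested. Ugt1a6a, a UDP-glucuronosyltransferase that conjugates phenols, was at 47.9, 61.3 and 53.4 CPM under the wild type label and 76.7, 56.5 and 70.2 CPM under the knockout label. Its difference was 0.32 (95% interval -0.03 to 0.67, limma adjusted p = 0.775), with 0.28 in the 4 females.

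Ugt1a6a is the least certain member, because the Ugt1a genes share their last exons. Its span on chromosome 1, from 88134809 to 88218997, overlaps 15 other annotated genes, 6 of which are in the table. Its deposited values were not whole reads within 0.05 in 5 of 6 libraries, whereas those of Cyp1b1 and Cyp1a1 were whole in all 6. Ugt1a7c shares 2170 exon bases with it and was at 10.5, 8.69 and 14.2 CPM under the wild type label and 12.9, 9.28 and 29.1 CPM under the knockout label. Ugt1a6b shares 1311 and was between 3.36 and 6.62 CPM. Ugt1a1 and Ugt1a5, which share as many, stayed at or below 1.43 CPM.

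Over the 8 members tested by limma, 0 passed the adjusted threshold for genotype label, where 2 of 17382 genes (0.0115%) passed. At an unadjusted p under 0.05 there were 2, Cyp1b1 and Ahr, beside 5.13% of all genes. Labels did not overlap for 1 member, Cyp1b1, beside 9.52% of all genes. Differences were above 0 for 5 members and below 0 for 3, with a median of 0.23, where the median of all genes was -0.06. In the 4 females 1 member passed, Cyp1b1, beside 0.0406% of all genes. For sex 0 members passed, beside 0.834% of all genes; at an unadjusted p under 0.05 there were 2, Cyp1a1 and Ahr, beside 15.3%. The sexes did not overlap for these 2 members, both lower in males, beside 24% of all genes in either direction and 14.7% with males lower. For the interaction 0 members passed, beside 2.54% of all genes, and 1, Cyp1a1, had an unadjusted p under 0.05, beside 17.9%.

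**Figure D4:**
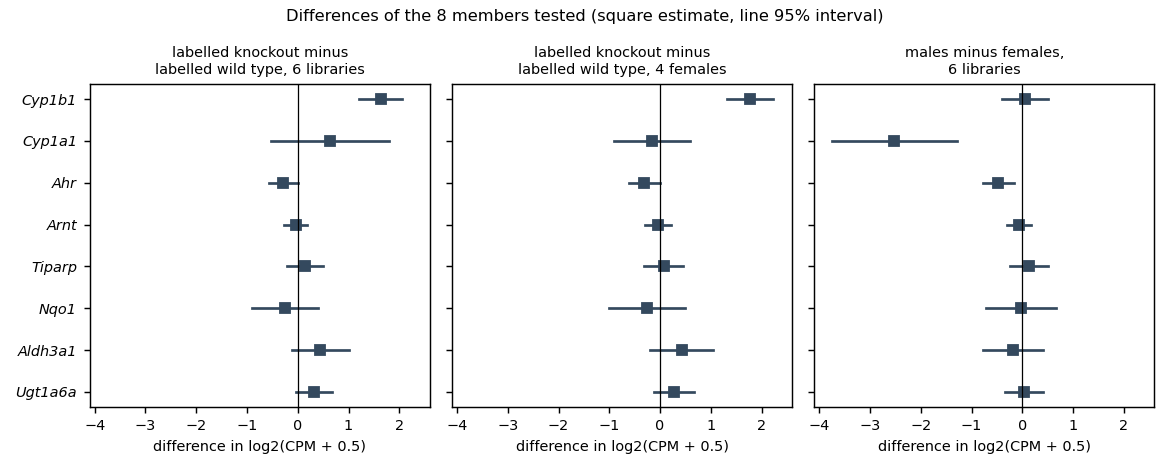
Differences of the 8 members tested, in log2(CPM + 0.5) units, from limma; squares are estimates and lines 95% intervals. The left and middle panels give labelled knockout minus labelled wild type in 6 libraries and in the 4 females. The interval of Cyp1b1 lies above 0 in both, and that of Ahr ends just below 0 in the left panel (-0.57 to -0.00070). The right panel gives males minus females, where the intervals of Cyp1a1 and Ahr lie below 0.

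Ordered by mean level per kilobase over all 6 libraries, the members ran from Ahr (15.9 ± 3.40 CPM per kilobase, SD, n = 6) through Ugt1a6a (14.1), Aldh3a1 (13.5), Tiparp (10.7), Arnt (9.31), Cyp1b1 (5.87), Nqo1 (2.98) and Cyp1a1 (2.42) to Ahrr (0.0454). Ranges of neighbours in this order overlapped except between Cyp1a1 and Ahrr. The order was not that of either label: by group means, Cyp1b1 (2.85 CPM per kilobase) was below Nqo1 (3.28) under the wild type label, and Ugt1a6a (15.7) and Aldh3a1 (15.3) were above Ahr (14.4) under the knockout label. Exon lengths are from GENCODE M21 and may differ from those the authors' counting used. Variation across libraries followed another order: the highest library exceeded the lowest 53.5-fold for Cyp1a1, 4.50-fold for Cyp1b1, 4.31-fold for Ahrr and 1.09-fold for Arnt, with the other members between 1.40-fold and 2.07-fold. For Ahrr these were 15 and 3 reads, with 95% Poisson intervals that overlapped (0.358 to 1.06 and 0.0306 to 0.434 CPM). The coefficient of variation was 70.1% for Cyp1a1 and 57.1% for Cyp1b1, where the median gene tested had 19.03%.

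Genes whose levels ran most like these were searched among 16023 genes with a mean of at least 1 CPM, by Pearson correlation of log2(CPM + 0.5) over the 6 libraries, as a description. For Cyp1a1 the top gene was Edc3 (r = 0.995), an enhancer of mRNA decapping, which lies 4715 bases beyond the end of Cyp1a1 on the same strand of chromosome 9. Edc3 had 44.8, 50.5 and 31.6 CPM under the wild type label and 46.4, 46.1 and 41.3 CPM under the knockout label, lowest in the 2 males as Cyp1a1 was. Snap47 (r = 0.995) came next and lies on chromosome 11. For Cyp1b1 the top 3 were Gm45437 (r = 0.982), Arsj, a sulfatase family gene (r = 0.982), and the pseudogene Tmem181b-ps (r = 0.978), which is on chromosome 17 but 73234514 bases away. For Ahr they were Rflna (r = 0.988), the class I gene H2-Q2 (r = 0.982) and the Mediator subunit gene Med23 (r = 0.978). No p is given, since these are the highest of many correlations over 6 libraries.

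Genes around the receptor were described from 7 lists. No gene of any list passed limma for genotype label over all genes (0 of 15, 19, 12, 15, 12, 10 and 12 tested). Of all 17382 genes tested, 2 (0.0115%) passed, so 0 in lists of this size says little about them. The lists share genes, so their counts and medians are not separate. Arnt2, Ncoa1, Ncoa2 and Ncoa3 are among both the co-regulators and the bHLH-PAS relatives. Hmox1 is in both the haem and NRF2 lists, and Nfe2l2 in both the AhR target and NRF2 lists. The AhR chaperones and co-regulators had a median difference of 0.01 over 15 genes. At an unadjusted p under 0.05 there were 0, beside 5.13% of all genes. Hsp90ab1, the chaperone subunit that holds AhR in the cytoplasm, was between 1155 and 1419 CPM. Nedd8 (48.3 ± 5.15 and 40.3 ± 9.31 CPM, SD, n = 3 each) and the coactivator Ncoa2 (87.7 ± 1.09 and 97.3 ± 3.67 CPM, SD, n = 3 each) had the smallest p, with a limma adjusted p of 0.775 for both. The 3 values of Ncoa2 in labelled knockout lay above the 3 in labelled wild type, as for 3.63% of all genes. In the 4 females the difference was -0.01 for Nedd8 and 0.11 for Ncoa2, against -0.28 and 0.15 in 6 libraries, and the list median was 0.05.

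Other reported AhR targets had a median difference of -0.02 over 19 genes tested of 23 found, with 9 above 0; the median was 0.12 after quantile normalization, 0.08 after median centring and -0.04 in the 4 females. Slc7a5, an amino acid transporter, was at 8.04, 12.1 and 11.3 CPM under the wild type label and 12.9, 12.04 and 23.2 CPM under the knockout label (limma adjusted p = 0.775). Ugt1a7c, given above, was the other of smallest p. Their differences were 0.55 and 0.46 in 6 libraries and 0.32 and 0.19 in the 4 females. Xdh, xanthine dehydrogenase, was the one list gene that passed for sex, where 0.834% of all genes passed. It was higher in the males, at 519 and 538 CPM, than in the females, at 245 to 307 CPM (log2 difference 0.93, SE 0.13, limma adjusted p = 0.0263). Leaving out labelled wild type 1, labelled knockout 1 or labelled knockout 2 ended that call (limma adjusted p = 0.0767, 0.0979 and 0.118). Xdh lies outside the naming rule and was chosen after its values were seen. Neutrophil markers, also higher in the males, were at 219 and 5591 CPM there against 116 to 175 CPM in the females, and their part in the Xdh difference was not tested.

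Enzymes that make or remove tryptophan-derived AhR ligands had the lowest list median, -0.34 over 12 genes with 2 above 0, and none passed. Ido1, which opens the tryptophan ring, was at 1.67, 0.841 and 11.5 CPM under the wild type label and 1.34, 0.689 and 0.468 CPM under the knockout label. Kynu, kynureninase, was at 4.27, 1.58 and 11.6 CPM against 2.87, 1.70 and 2.18 CPM. In both genes the male labelled wild type was highest and the remaining labels overlapped, and the differences of -1.35 and -0.87 came to -0.21 for each in the 4 females, where the list median was -0.19. T cell markers (6 genes) summed to 133 CPM in that same library against 28.3 to 40.7 CPM in the others, and their part was not tested.

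The electron donors and haem enzymes that P450s need had a median of -0.14 over 15 genes. At an unadjusted p under 0.05 there were 0, beside 5.13% of all genes. Por, the P450 reductase, was between 335 and 559 CPM. Alas1, the rate-limiting step of haem synthesis in most cells, was at 640 ± 107 and 520.5 ± 71.8 CPM, and Ppox, a later step, at 36.7 ± 5.13 and 29.6 ± 5.42 CPM (SD, n = 3 each, limma adjusted p = 0.775 for both). In the 4 females the differences were -0.18 for Alas1 and -0.14 for Ppox, against -0.29 and -0.31 in 6 libraries, and the list median was -0.07. Among bHLH-PAS relatives, which share the dimerisation domain of AhR and ARNT, the median was 0.13 over 12 genes and 3 had an unadjusted p under 0.05, beside 5.13% of all genes. Npas2 and Clock were at 4.72 ± 0.654 and 89.5 ± 7.39 CPM under the wild type label and at 11.3 ± 3.17 and 117 ± 5.11 CPM under the knockout label (SD, n = 3 each, limma adjusted p = 0.554 and 0.775), with labels that did not overlap for either gene, as for 3.63% of all genes with the knockout label higher. Their differences were 1.15 and 0.39 in 6 libraries and 1.30 and 0.29 in the 4 females, where the list median was 0.13. Relatives of Aldh3a1, Nqo1 and Tiparp had a median of -0.12 over 10 genes; Parp12 and Parp9 had the smallest p (limma adjusted p = 0.775 for both) and Aldh3a2 was between 101 and 116 CPM. The differences of Parp12 and Parp9, -0.46 and -0.38 in 6 libraries, were -0.11 and 0.066 in the 4 females, and the list median there was -0.0079. NRF2 targets had a median of -0.07 over 12 genes. Nfe2l2, which encodes NRF2, was at 237 ± 28.4 and 198 ± 30.1 CPM and Hmox1, haem oxygenase, at 178 ± 36.7 and 128 ± 72.7 CPM (SD, n = 3 each, limma adjusted p = 0.775 for both). The difference of Hmox1, -0.63 in 6 libraries, was -0.03 in the 4 females and the male labelled knockout was lowest at 58.2 CPM; that of Nfe2l2 went from -0.26 to -0.09, and the list median in the females was 0.0052.

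**Figure D5:**
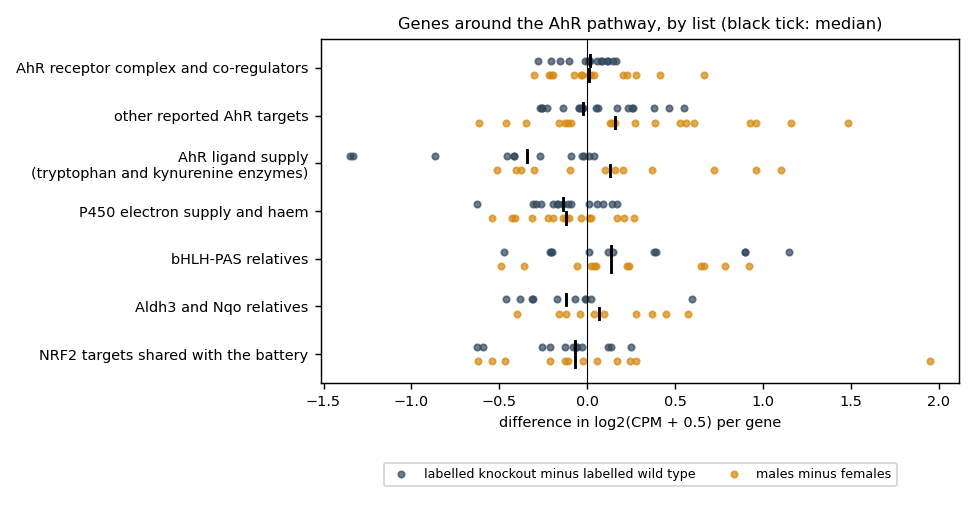
Log2 differences per gene for 7 lists of genes around the AhR pathway, for labelled knockout minus labelled wild type (dark) and for males minus females (orange); each dot is 1 gene and black ticks are list medians. List medians for genotype label lie between -0.34 and 0.13.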

How the data were processed

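Whole lung RNA was sequenced in 6 libraries. The deposited values are CPM per gene, with 0.0001 contained in each value as deposited; per the submitters' processing notes the build was mm10 and the tools TopHat2 and Partek, without versions or roles. For annotation, filters and strand use the sources used here give nothing, so overlapping genes can share reads. Read numbers come from the step between low CPM values; between 82.1% and 83.2% of values up to 100 reads were whole multiples within 0.05, so count models were left out. A value of 3 reads corresponds to between 0.109 and 0.148 CPM.

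limma 3.58.1 (R 4.3.3, variance trend) was fitted to log2(CPM + 0.5) of 17382 genes with a mean of at least 0.5 CPM, with genotype label and sex as terms; sex by genotype came from an interaction term. This scale understates changes of low genes. Tests were two-sided, with Benjamini-Hochberg adjustment over all genes and a threshold of 0.05. The fit was also run on simulated data. These held independent genes, no sex effect and no library apart in cell type markers, so that run does not test those features. Python 3.11.15, pandas 2.3.3, numpy 2.4.6, scipy 1.17.1 and matplotlib 3.10.9 did the rest. Positions and exon lengths come from GENCODE M21, promoters from RefSeq.

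Members and lists were chosen with earlier results of these data known. Named were all members, per list the genes past the threshold for genotype label or else the 2 of smallest p, genes overlapping a member, and the 3 genes most like Cyp1b1, Cyp1a1 and Ahr; some genes are not reported here. Genes named outside that rule (Hsp90ab1, Por, Aldh3a2) were chosen for their role, with their values known; Xdh, Il4i1, Parp14 and Slc7a11 were chosen by their test results. Alternatives were pseudocounts of 0.1 and 1, other filters, quantile normalization, median centring, no sex term, the 4 females alone, no variance trend, robust moderation and leaving out each library. Marker sums without single genes were added after seeing the data.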

Additional observations from a re-analysis of the deposited data

Results flagged for a closer look

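By limma's interaction term, adjusted over all genes, 6 genes of the pathway lists and no member had a genotype difference that was not the same in both sexes, where 2.54% of all genes passed. They were 2 of 12 tryptophan and kynurenine enzymes tested, 3 of 10 relatives of Aldh3a1, Nqo1 and Tiparp, and 1 of 12 NRF2 targets. The other lists had 0 of 15, 19, 15 and 12. Each rests on 1 male per label, with the spread taken from the females. The interaction was -3.429 for Ido1 (adjusted p = 0.0487) and -5.729 for Il4i1 (adjusted p = 0.00751), both of which oxidise tryptophan or other amino acids. By the same test it was -1.051 for Parp12 (adjusted p = 0.0453), -1.338 for Parp9 (adjusted p = 0.0160) and -1.318 for Parp14 (adjusted p = 0.0193), relatives of Tiparp. It was -2.367 for Slc7a11, a cystine transporter (adjusted p = 0.0349). Il4i1 was at 17.3 CPM in the male labelled wild type and listed without a read in the male labelled knockout. Slc7a11 was at 33.04 CPM in the male labelled wild type and between 3.22 and 6.94 CPM in the other libraries. Parp9 and Parp14 were at 93.8 and 248 CPM in that library against at most 41.2 and 137 CPM elsewhere. In that library T cell markers summed to 133 CPM against 28.3 to 40.7 CPM in the others, and in the male labelled knockout neutrophil, erythroid and platelet markers were at 5591, 5848 and 305 CPM against at most 219, 2760 and 51.2 CPM; their part was not tested. Leaving out 1 female ended the call for 5 of the 6 genes in limma: for Parp12 without each of the 4 in turn (adjusted p 0.0517 to 0.144), for Slc7a11 without labelled wild type 1 or 2 or labelled knockout 1 (0.0518, 0.0511 and 0.0899), for Ido1 without labelled wild type 2 or labelled knockout 1 (0.0794 and 0.104), for Parp9 without either female labelled knockout (0.0641 and 0.0532) and for Parp14 without labelled knockout 1 (0.0623). All 6 calls, that for Il4i1 included, ended with no filter (limma adjusted p 0.111 to 0.208) and with no variance trend (0.0858 to 0.205). Quantile normalization ended those for Ido1, Parp12 and Slc7a11 (0.0835, 0.0751 and 0.0578), median centring that for Parp12 (0.0678), a pseudocount of 0.1 those for Ido1 and Parp12 (0.0806 and 0.0525) and a minimum of 1 CPM that for Ido1 (0.0508). Il4i1, Parp14 and Slc7a11 were picked by this test result and not by the naming rule.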

How the results depend on the processing

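No paired analysis was possible because the replicate numbers were given in accession order and pair no libraries. The Cyp1b1 genotype difference kept its direction under all 16 alternatives. It passed the threshold, as the 1 member that did, after median centring (1.73), in the 4 females (1.76), with quantile normalization (1.71), with robust moderation (1.63) and with no filter (1.63); leaving out each library gave 1.42 to 1.76 with 0 members past the threshold. Over all 16, its limma adjusted p ran from 0.0197 to 0.683, the latter without labelled knockout 2 (0.573 without labelled knockout 1). Genes past the threshold for genotype label numbered 2, against 7 in the 4 females, 6 under each of the other 4 of these settings and 1 to 4 leaving out a library. For sex they numbered 145, against 11 with no variance trend and 21 to 840 leaving out a library; members past it numbered 0, and 0 to 1 leaving out a library (Cyp1a1 without labelled knockout 3). For the interaction they numbered 441, against 0 with no filter or no variance trend and 230 to 577 leaving out a library; members past it numbered 0, against 1 (Cyp1a1) after median centring and 0 to 1 leaving out a library. With no filter or no variance trend, no gene of the lists passed the interaction either, and Xdh missed the threshold for sex with no variance trend (limma adjusted p = 0.156). Median centring moved the median genotype difference of all genes by 0.10 and turned the unadjusted calls under 0.05 from 313 higher and 579 lower to 596 higher and 335 lower. The difference between labels in the log2 ratio of Cyp1b1 to Cyp1a1 ran from 0.22 to 2.32 leaving out a library.

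Signs turned for values that did not pass. Leaving out a library, the genotype difference of Cyp1a1 ran from -0.16 (without either male, as in the 4 females) to 1.16, and that of Parp9 from -0.52 to 0.066 (0.066 also in the 4 females). The sex difference then ran from -0.40 to 0.034 for Aldh3a1, -0.15 to 0.25 for Cyp1b1, -0.17 to 0.12 for Nqo1 and -0.066 to 0.12 for Ugt1a6a. The interaction ran from -0.12 to 0.26 for Ahr, -0.46 to 0.55 for Aldh3a1, -0.066 to 0.039 for Arnt, -0.30 to 0.38 for Nqo1, -0.012 to 0.46 for Tiparp and -0.11 to 0.33 for Ugt1a6a. Median centring turned the genotype difference (0.066) and the interaction (0.21) of Arnt and the sex difference of Nqo1 (0.019), and quantile normalization the interaction of Arnt (0.065). The cause was not tested. Alternatives without both sexes gave no sex or interaction value, and leaving out a male gave no interaction.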
